A study of Mus musculus with 4 samples.

Results

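The 34 genes described here encode the enzymes and regulators of fatty acid, triglyceride and cholesterol synthesis. They were taken from a fixed list of gene symbols and found among the 43629 Ensembl mouse genes of the count files by mapping identifiers to symbols, and all 34 were present. They fall into 17 lipogenic enzymes (fatty acid synthesis, elongation, desaturation and triglyceride assembly), 13 sterol enzymes (the mevalonate and cholesterol pathway) and 4 regulators (Srebf1, Srebf2, Scap and Insig1). The series measured RNA of islets, the small endocrine organs scattered through the pancreas, from C57BL/6 mice, with 1 library for each of 4 groups. The first group is islets with the genotype Rip2;IMP2, described in the series title as a knockout of IMP2 specific to islets. Igf2bp2 encodes IMP2, a protein that binds messenger RNA. Rip2 usually names an insulin promoter, whose activity is in beta cells. Other cells in an islet preparation may keep the intact gene. The second group is RNA recovered with IMP2 from wild-type islets by immunoprecipitation (RIP). The third is a wild-type library labelled IgG, an antibody of no chosen target, and the fourth is islets of control genotype. Age, sex, the number of mice pooled and the exons deleted are not stated in the labels. Single libraries allow neither a replicate check nor a p-value, and every comparison is between libraries.

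The libraries held 24275628 gene counts in the labelled knockout, 6025594 in the RIP, 13195732 in the IgG library and 26350813 in control islets. Igf2bp2 itself had 222 counts (9.14 CPM, the count scaled to a library total of 1000000) in the labelled knockout and 255 (9.68 CPM) in control islets, a ratio of 0.979 (95% interval 0.814 to 1.18), so the count gave no check of the label and the library is called the labelled knockout. Islet markers were nearly lost from the library labelled IgG: 12 beta cell markers summed to 335172 CPM in the labelled knockout, 236189 in the RIP, 976 in the IgG library and 309748 in control islets. By contrast, 14 adipocyte markers summed to 302 CPM in the labelled knockout, 2503 in the RIP, 43926 in the IgG library and 370 in control islets. For 14 brown adipocyte markers the sums were 48.4, 1525, 23196 and 45.2 CPM in the same libraries. The tissue label islet thus goes against the markers of the IgG library, and every value from it below is given under that limit. Some adipocyte transcripts were also in the RIP library, where Adipoq, an adipocyte hormone gene, stood at 30.2 CPM, against 358 in the IgG library and 0.190 in control islets.

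Fatty acid synthesis starts from cytosolic acetyl-CoA, which ATP-citrate lyase (Acly) makes from citrate and Acss2 makes from acetate. Acetyl-CoA carboxylases (Acaca, Acacb) and fatty acid synthase (Fasn) build saturated chains, which elongases and desaturases modify and acyltransferases assemble into triglyceride. Cholesterol synthesis uses the same acetyl-CoA through HMG-CoA, mevalonate, isoprenyl diphosphates, squalene and lanosterol. Both pathways are driven by the sterol regulatory element binding proteins, of which Srebf1 products act mainly on lipogenic genes and Srebf2 products mainly on sterol genes. Scap escorts these precursors to the Golgi and Insig1 holds them back in the endoplasmic reticulum when sterols are plentiful. In fat, lipogenesis serves storage and, in brown fat, refills the lipid burned for heat.

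The promoters of the sterol enzymes shared a sequence feature that did not enter the choice of genes. RefSeq promoters (GRCm38.p6) were matched for 26 of the 34 genes (all but Scd1, Scd2, Fads1, Dgat1, Dgat2, Fdps, Fdft1 and Sqle), and the 250 bases before each start were searched on both strands. The letters CCAAT, the box bound by nuclear factor Y, which is a known partner of sterol regulatory element binding proteins, were found for 10 of the 10 sterol enzymes matched, 6 of 12 lipogenic enzymes and 3 of 4 regulators. Of all 27025 genes with such a promoter, 37.5% held CCAAT. The GC box GGGCGG was found for 9 of 10 sterol enzymes, 6 of 12 lipogenic enzymes and 4 of 4 regulators, against 35.4% of all genes. The E-box CACGTG was found for 2 of 10, 1 of 12 and 2 of 4, against 6.86%. One form of the sterol regulatory element, TCACNCCAC, was found for Hmgcs1 alone among the 26, against 1.22% of all genes. A gene with several promoters was counted when any of them held the letters, and CCAAT can overlap its own reverse complement. A match is a description of letters and not a bound site. The sequences below show 2 sterol genes that hold the box, the lipogenic gene Fasn that holds it, and Acly, the lipogenic gene with the highest level in islets, that does not. They read 5′ to 3′ on the gene's strand, and capitals mark CCAAT (or ATTGG on the other strand) and TCACNCCAC.
Hmgcs1, chr13:119690101-119690350, plus strand: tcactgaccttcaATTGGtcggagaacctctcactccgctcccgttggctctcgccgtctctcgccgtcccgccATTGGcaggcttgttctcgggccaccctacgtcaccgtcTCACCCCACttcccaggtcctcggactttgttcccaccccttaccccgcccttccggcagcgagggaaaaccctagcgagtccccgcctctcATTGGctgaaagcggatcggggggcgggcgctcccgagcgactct
Mvd, chr8:122443423-122443672, minus strand: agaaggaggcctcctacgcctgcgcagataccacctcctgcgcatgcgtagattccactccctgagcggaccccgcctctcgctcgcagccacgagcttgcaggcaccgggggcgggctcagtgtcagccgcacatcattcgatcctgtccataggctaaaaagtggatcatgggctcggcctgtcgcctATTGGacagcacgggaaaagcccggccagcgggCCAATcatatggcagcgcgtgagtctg
Fasn, chr11:120824548-120824797, minus strand: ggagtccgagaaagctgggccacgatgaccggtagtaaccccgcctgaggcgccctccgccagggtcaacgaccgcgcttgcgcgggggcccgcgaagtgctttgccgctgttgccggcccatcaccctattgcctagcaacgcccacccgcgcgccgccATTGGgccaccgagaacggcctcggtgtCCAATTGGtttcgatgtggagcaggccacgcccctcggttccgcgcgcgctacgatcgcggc
Acly, chr11:100528001-100528250, minus strand: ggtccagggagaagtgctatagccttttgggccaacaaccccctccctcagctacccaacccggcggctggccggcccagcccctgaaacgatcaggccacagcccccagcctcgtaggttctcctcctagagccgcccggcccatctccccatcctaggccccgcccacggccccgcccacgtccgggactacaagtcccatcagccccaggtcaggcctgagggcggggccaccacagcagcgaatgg
Hmgcs1 held 3 CCAAT boxes and 1 TCACNCCAC, Mvd held 2 CCAAT boxes, Fasn held 3 of which a pair overlap, and Acly held 4 GC boxes and 0 CCAAT.

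In islets the 34 genes took up a small share of the RNA, 0.207% of gene counts in the labelled knockout and 0.219% in control islets. Levels of different genes were compared per length, as CPM per kilobase of merged exons. By that measure Acly was far above every other member, with 137 CPM per kilobase in the labelled knockout and 114 in control islets. In control islets Srebf2 followed at 26.9, Scd1 at 22.8, Elovl5 at 22.1 and Insig1 at 20.0 CPM per kilobase. The lowest lipogenic enzyme there was Dgat2, an acyltransferase of the last step of triglyceride synthesis, at 1.01 CPM per kilobase. Fasn stood at 12.9, close to the sterol enzymes Sqle at 15.6, Fdft1 at 11.3 and Hmgcs1 at 11.2. The sterol enzymes lay within a narrower range than the lipogenic ones, from 2.66 for Lss to 18.8 for Pmvk, with Idi1 apart at 0.455. The files list reads with more than 1 alignment, and reads ambiguous between genes, in entries of their own, so a gene with near-identical copies or overlapping neighbours can be undercounted. At 98% identity over at least 50 bases, other annotated transcripts covered 91.4% of the longest Fdps transcript, 64.3% of Acaca, 60.1% of Me1 and 33.3% of Idi1, mostly as processed pseudogenes. The strand option of the counting was not given, and exons of other genes covered 26.7% of the merged exons of Fdps, 18.3% of Fdft1, 13.2% of Scap and 12.1% of Hmgcs1. The plot of levels by library shows all 34 genes.

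**Figure D1:**
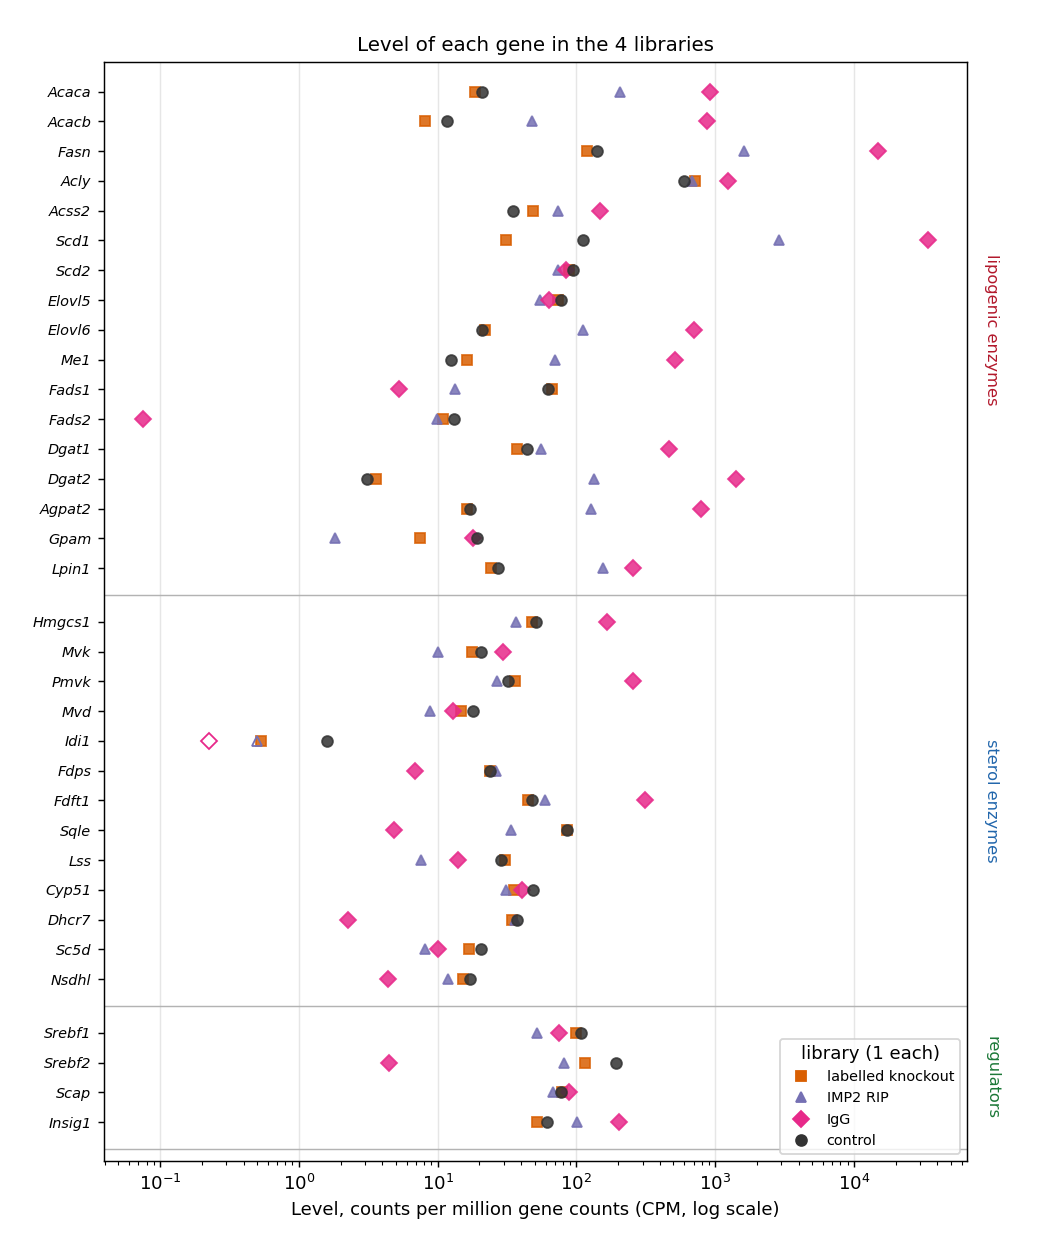
Level of each of the 34 genes in the labelled knockout, IMP2 RIP, IgG and control libraries (1 library each), in CPM on a log axis, by group. Open symbols mark 0 counts, drawn at the CPM of 3 counts. The IgG symbols spread from 0.0758 CPM for Fads2 to 34177 CPM for Scd1, while the symbols of the labelled knockout and control lie close together for most genes.

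The comparison of the labelled knockout with control islets is meant to show which RNAs differ in level without IMP2. The Igf2bp2 count gave no check that IMP2 was lost. Most lipid synthesis genes had similar levels in both libraries, and those that stood apart were lower in the labelled knockout: the desaturase gene Scd1, the acyltransferase gene Gpam, the sterol regulator gene Srebf2 and the isomerase gene Idi1. A gene was measured when its mean over both libraries was at least 1 CPM, and was called when its scaled ratio was at least 1.5-fold and the exact 95% interval of the ratio excluded 1. The interval covers counting error only. All 34 genes were measured, 0 were called higher and 4 lower (11.8%), against 21.4% of all 15735 measured genes called, 6.13% higher and 15.3% lower. The share of members called was thus below the background. The median log2 ratio was -0.03 for the lipogenic enzymes, -0.05 for the sterol enzymes and -0.13 for the regulators, against 0.00 for all measured genes. These calls did not change under the other scalings tried.

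Scd1 (ENSMUSG00000037071, mm10 chromosome 19, 44394455 to 44407879, minus strand) makes monounsaturated fatty acids. It had 760 counts (31.3 CPM) in the labelled knockout and 2941 (112 CPM) in control islets, a ratio of 0.290 (0.268 to 0.315). Its neighbour and paralog Scd2 (chromosome 19, 44293674 to 44306864, plus strand) had 89.3 CPM in the labelled knockout and 94.3 in control islets, a ratio of 0.980 (0.925 to 1.04). The desaturase genes therefore differed in this comparison, with Scd1 far below 1 and Scd2 at 1. Gpam (ENSMUSG00000024978, chromosome 19, 55067268 to 55127238, minus strand) encodes the mitochondrial acyltransferase that starts glycerolipid synthesis. It had 182 counts (7.50 CPM) in the labelled knockout and 510 (19.4 CPM) in control islets, a ratio of 0.401 (0.337 to 0.476). Srebf2 (ENSMUSG00000022463, chromosome 15, 82147181 to 82205379, plus strand) had 2787 counts (115 CPM) in the labelled knockout and 5095 (193 CPM) in control islets, a ratio of 0.615 (0.587 to 0.644). It lies just past the 1.5-fold limit and is not called at 2-fold. Idi1, the isopentenyl diphosphate isomerase gene (ENSMUSG00000058258, chromosome 13, 8885501 to 8892451, plus strand), had 13 counts in the labelled knockout and 42 in control islets, a ratio of 0.348 (0.171 to 0.661) close to the limit of measurement.

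Beside the lower Srebf2 count, 9 of the 13 sterol enzymes had ratios below 1 and 4 had ratios of at least 1. Among all 15735 measured genes, 7827 had ratios below 1. The 12 sterol enzymes other than Idi1 had ratios from 0.750 for Cyp51 to 1.16 for Pmvk, and 0 of them was called. A link between Srebf2 and these counts was not tested. Hmgcs1, which makes HMG-CoA, had a ratio of 0.969 (0.895 to 1.05), and Sqle, squalene epoxidase, 1.03 (0.967 to 1.09). Cyp51, the lanosterol demethylase, had 35.3 CPM in the labelled knockout and 48.8 in control islets (0.687 to 0.818), inside the 1.5-fold limit although its interval excluded 1. Fdft1, squalene synthase, had a ratio of 0.976, Dhcr7, the reductase of the last step, 0.966, Fdps, farnesyl diphosphate synthase, 1.04 and Lss, lanosterol synthase, 1.10. Mvk, Mvd, Sc5d and Nsdhl, which act before isoprenyl diphosphates or after lanosterol, had ratios of 0.896, 0.846, 0.856 and 0.921. Of the other regulators, Srebf1 stood at 0.953 (0.902 to 1.01), Scap at 1.04 (0.975 to 1.11) and Insig1 at 0.875 (0.812 to 0.942).

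Among lipogenic enzymes not called, those that make cytosolic acetyl-CoA or NADPH had the highest ratios. Acss2, acetyl-CoA synthetase, had 48.6 CPM in the labelled knockout and 35.0 in control islets, a ratio of 1.44 (1.32 to 1.57). Me1, malic enzyme, had 16.4 CPM in the labelled knockout and 12.4 in control islets, a ratio of 1.37 (1.18 to 1.59). Acly had 721 CPM in the labelled knockout and 600.3 in control islets, a ratio of 1.24 (1.22 to 1.27). The 3 intervals exclude 1, but the ratios lie under the 1.5-fold limit. As log2 ratios they were 0.52, 0.45 and 0.32, beside a median of 0.25 for the 12 beta cell markers. The chain-building genes had ratios below 1, with Acacb at 0.718 (0.597 to 0.861) and Fasn at 0.876 (0.834 to 0.920). Acaca stood at 0.931 (0.821 to 1.06), with an interval that holds 1. The elongase genes Elovl5 and Elovl6 had ratios of 0.981 and 1.09, and the desaturase genes of polyunsaturated fatty acids, Fads1 and Fads2, 1.11 and 0.864. In triglyceride assembly, Agpat2 had a ratio of 0.994, Lpin1 0.931, Dgat1 0.874 and Dgat2 1.21.

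**Figure D2:**
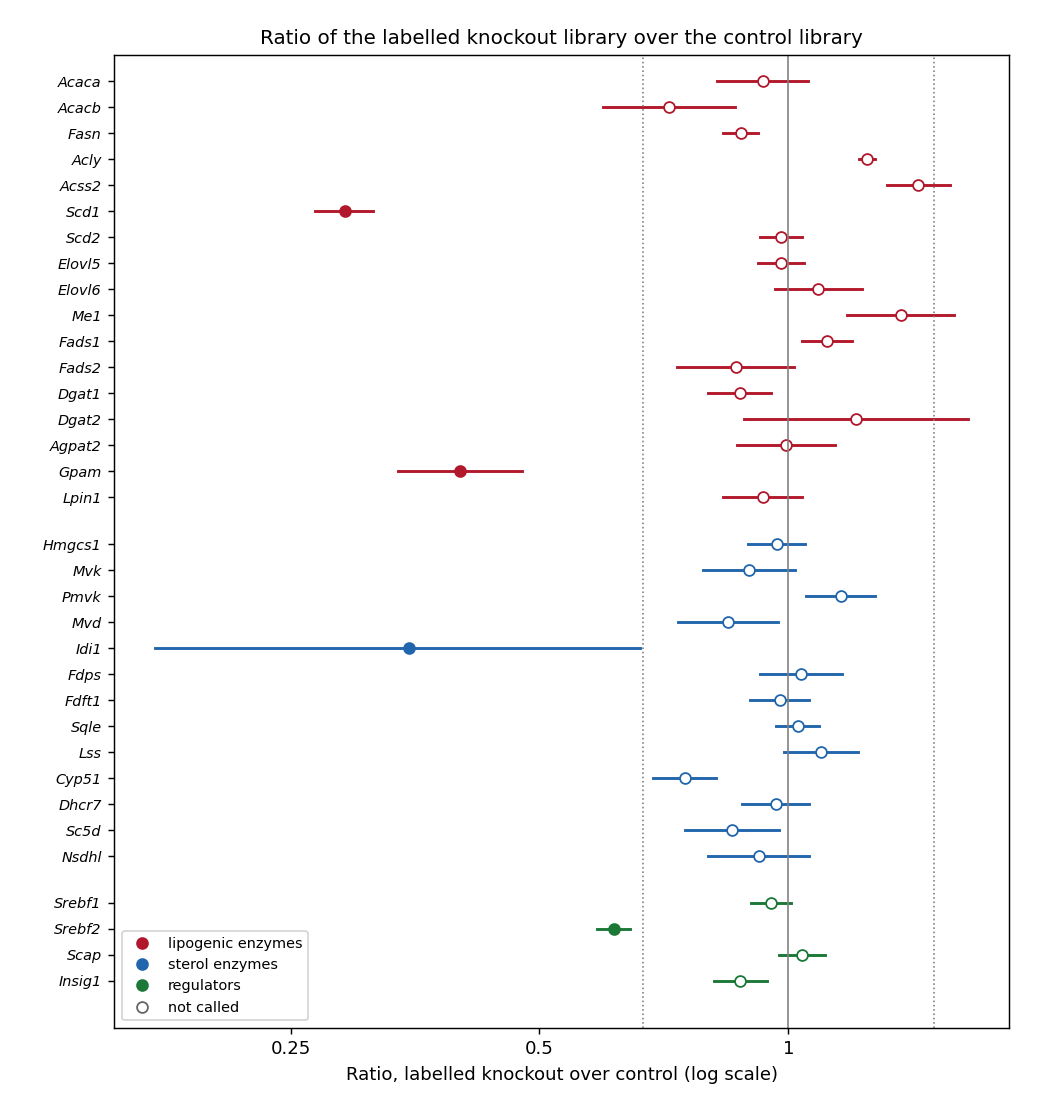
Ratio of the labelled knockout over the control library for each gene (points) with its exact 95% counting interval (bars), on a log axis, coloured by group. Filled points are called, and the dotted lines are at 1.5-fold. Scd1, Gpam, Idi1 and Srebf2 lie left of the lower line, from 0.290 to 0.615.

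Other genes of the pathways were counted in the same way. Of 32 further lipid synthesis genes, 27 were measured, 0 were called higher and 1 lower (3.70%), Gpat3, an acyltransferase gene, with 13 counts in the labelled knockout and 43 in control islets. Elovl2 had the highest ratio, 1.44. Mlxipl, the carbohydrate response factor gene, had 558 CPM in the labelled knockout and 505 in control islets, and Thrsp, a lipogenic adipose and liver gene, 4.82 and 6.07 CPM. Of 21 further sterol genes, all measured, 0 were called higher and 3 lower (14.3%), a share near the 15.3% of all measured genes called lower. These were Lbr, a sterol reductase and nuclear lamina receptor (ratio 0.325, 0.286 to 0.368), Mylip, a ubiquitin ligase gene induced by sterols (0.427), and Stard4, a sterol carrier gene (0.625). Mylip and Stard4 were named after their values were seen.

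Markers of cell types were compared between the same libraries. Of 12 beta cell markers, 1 was called higher and 0 lower, with a median log2 ratio of 0.25. Of 10 alpha and delta cell markers, 4 were called higher and 0 lower, with a median of 0.42. All 14 lymphocyte markers were called lower, with a sum of 258 CPM in the labelled knockout and 1447 in control islets, and all 12 genes of dividing cells, with 171 and 496 CPM. Of 8 macrophage markers, 1 was called higher and 2 lower, with sums of 388 and 676 CPM. Of 12 hepatocyte and enterocyte markers, 6 were called lower, and Fabp2, an enterocyte gene, stood at 0 in the labelled knockout and 7.29 CPM in control islets. Of 14 adipocyte markers, 7 were measured, 1 was called higher and 2 lower, with sums of 302 and 370 CPM. Their defining members were near 0 in both libraries, Adipoq at 0.124 CPM in the labelled knockout and 0.190 in control islets, while Plin1, the lipid droplet coat gene, stood at 0.124 and 1.86 CPM. The part of these cells in the lower Scd1, Gpam, Srebf2 and Idi1 was not tested. In bulk RNA, fewer cells of a type and less RNA per cell cannot be told apart.

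The IgG library against control islets shows what the antibody control held. Of the lipogenic enzymes 12 of 17 were called higher in the IgG library, by up to 850.5-fold, while of 12 measured sterol enzymes 4 were called higher and 3 lower. Here and for the RIP a call required a 2-fold ratio. Of 33 measured members, 18 were called higher and 6 lower, 72.7% in all, against 73.0% of all measured genes, so the share called matched the background. By direction, 54.5% of members were called higher, against 25.7% of all measured genes, and 18.2% lower, against 47.3%. The median log2 ratio was 4.30 for lipogenic enzymes, 0.16 for sterol enzymes and 0.74 for regulators, against -0.79 for all measured genes. These libraries differ so much in content that scaling matters: with library totals in place of TMM, every log2 ratio of this comparison fell by 0.91, and the medians of the sterol enzymes and regulators turned to -0.75 and -0.18. Without acinar and hormone genes in the totals, 11 of the 33 measured members were called lower, against 67.9% of all measured genes.

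Scd1 was the most abundant member in the IgG library, with 34177 CPM against 112 in control islets. Fasn had 14804 CPM against 141 in control islets, and Dgat2 had 1406 CPM against 3.11. The ratios were 576 (556 to 598), 198 (191 to 204) and 850.5 (685 to 1070), so Dgat2, among the lowest members in islets, gave the highest ratio. The carboxylase genes followed, Acaca with 924 CPM in the IgG library and 20.8 in control islets, and Acacb, which makes the malonyl-CoA that restrains mitochondrial fat oxidation, with 881 and 11.7 CPM. Elovl6, which lengthens palmitate, had 700.5 CPM in the IgG library and 21.02 in control islets, and Me1 had 513 and 12.4 CPM. Agpat2, of phosphatidic acid synthesis, had 789 CPM in the IgG library and 17.1 in control islets. Dgat1 had 466 and 44.4 CPM, and Lpin1, a phosphatidate phosphatase gene, 255 and 27.1 CPM. The suppliers of acetyl-CoA showed smaller differences, Acly with 1230.7 CPM in the IgG library and 600.3 in control islets, and Acss2 with 149 and 35.0 CPM. All of these 12 genes were called higher under TMM, and Acly lost its call with totals that leave out acinar and hormone genes.

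Other lipogenic genes did not share that pattern. Scd2 had 84.6 CPM in the IgG library and 94.3 in control islets, and Elovl5, an elongase of polyunsaturated fatty acids, 63.4 and 78.0 CPM. Gpam had 18.1 CPM in the IgG library and 19.4 in control islets, although it opens the same triglyceride pathway as Agpat2 and Dgat2. These 3 genes were not called. The polyunsaturated desaturase genes were lower, Fads1 with 70 counts (5.30 CPM) in the IgG library and 62.6 CPM in control islets, and Fads2 with 1 count and 13.1 CPM. Their ratios were 0.160 (0.124 to 0.203) and 0.0109 (0.000274 to 0.0609). Estimated reads per molecule in the IgG library were 21. If that estimate holds, counts of this size stand for few molecules, and the interval of Fads2 on estimated molecules reached 0.846.

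In the sterol arm, 4 enzymes were called higher in the IgG library. Pmvk, phosphomevalonate kinase, had 258 CPM in the IgG library and 32.2 in control islets (ratio 15.1, 14.0 to 16.3). Fdft1 had 312 and 48.0 CPM (ratio 12.2, 11.5 to 13.0), Hmgcs1 167 and 51.3 CPM (ratio 6.12), and Mvk, mevalonate kinase, 29.5 and 20.6 CPM (ratio 2.69). Mvk's direction turned with totals that leave out acinar and hormone genes. Of the enzymes that act on squalene or later, 3 were called lower. Sqle had 64 counts (4.85 CPM) in the IgG library and 86.3 CPM in control islets, a ratio of 0.106 (0.0812 to 0.136). Dhcr7 had 30 counts (2.27 CPM) and 37.2 CPM, a ratio of 0.115 (0.0772 to 0.165). Nsdhl, of sterol demethylation, had 4.40 CPM in the IgG library and 17.2 in control islets and was called lower, though not on estimated molecules. Mvd, Fdps, Lss, Cyp51 and Sc5d had ratios of 1.36, 0.543, 0.914, 1.57 and 0.919 and were not called. Idi1 had 0 counts in the IgG library and was below the limit of measurement. With 3 counts standing for 0, its level was at least 3.72-fold lower than in control islets. That bound did not hold on estimated molecules, where the interval of the ratio ran from 0 to 7.25.

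The regulators also parted. Srebf2 had 59 counts (4.47 CPM) in the IgG library and 193 CPM in control islets, a ratio of 0.0435 (0.0331 to 0.0562), the lowest of the 4 regulators. Srebf1 had 74.9 CPM in the IgG library and 109 in control islets and was not called under TMM. Insig1 had 202 CPM in the IgG library and 61.9 in control islets (ratio 6.13, 5.76 to 6.53), and Scap 88.5 and 78.0 CPM (ratio 2.14, 1.99 to 2.30). Under totals that leave out acinar and hormone genes, Srebf1 and Scap turned to log2 ratios of -1.12 and -0.40. Of all measured genes, 25.7% were called higher in the IgG library than in control islets and 47.3% lower. Beyond the members, 16 of 30 measured lipid synthesis genes were called higher in the IgG library (53.3%) and 5 lower (16.7%). By level Thrsp led, with 5469 CPM against 6.07 in control islets, and Elovl3, an elongase gene typical of brown fat, stood at 108 CPM against 0, at least 1786-fold higher when 3 counts stand for 0. Mlxipl had 226 CPM in the IgG library and 505 in control islets and was not called. Of 21 further sterol genes, 3 were called higher (14.3%) and 13 lower (61.9%). Acat2, which opens the mevalonate pathway, had the highest ratio, with 425 CPM in the IgG library and 15.4 in control islets. All 14 adipocyte markers and all 13 measured brown adipocyte markers were called higher in the same comparison, and all 12 beta cell markers lower. The antibody and this tissue content cannot be told apart.

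The RIP set against the IgG library addresses which RNAs the IMP2 antibody recovers more than an antibody of no chosen target. Of 17 lipogenic enzymes 13 were called lower in the RIP, and of 12 measured sterol enzymes 7 lower and 3 higher. Of 33 measured members, 5 were called higher and 23 lower, 84.8% in all, against 73.7% of all measured genes. By direction the members gave 15.2% higher and 69.7% lower, against 43.2% and 30.5% of all measured genes. The median log2 ratio was -3.32 for lipogenic enzymes, -1.16 for sterol enzymes and -1.15 for regulators, against 0.44 for all measured genes. With library totals every log2 ratio rose by 0.69, and 15 members in place of 23 were called lower, against 22.9% of all measured genes. Totals without acinar and hormone genes gave 14, against 18.9%, and estimated molecules left 3 called higher, against 16.2%.

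Scd1 had 2870.3 CPM in the RIP, against 34177 in the IgG library, a ratio of 0.0521 (0.0513 to 0.0529). Fasn had 1626 CPM in the RIP, against 14804 in the IgG library, a ratio of 0.0681 (0.0667 to 0.0695). Acacb, with 47.8 CPM in the RIP, against 881 in the IgG library, had the lowest ratio of all members, 0.0337. The 5 members called higher in the RIP were Fads2, Fdps, Sqle, Dhcr7 and Srebf2. In the same comparison all 12 beta cell markers were called higher, with ratios of at least 27.2. The part of the low islet content of the IgG library in these 5 calls was not tested. Srebf2 had 81.2 CPM in the RIP, against 4.47 in the IgG library, a ratio of 11.3 (8.58 to 15.0). Dhcr7 had 36.0 CPM in the RIP, against 2.27 in the IgG library, a ratio of 9.82 (6.69 to 14.9), and Sqle had 33.7 and 4.85 CPM, a ratio of 4.31 (3.24 to 5.80). On estimated molecules these 3 stayed called, with lower bounds of 3.22, 2.07 and 1.13, while Fads2 (9.96 CPM in the RIP, against 0.0758 in the IgG library) and Fdps (26.2 CPM in the RIP, against 6.90 in the IgG library) did not.

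Set against islet levels, 10 lipogenic RNAs were called higher in the RIP, and 0 of the sterol RNAs or regulators were called higher under TMM. Of 33 measured members, 10 were called higher for the RIP over control islets and 5 lower, 45.5% in all, against 41.2% of all measured genes, with 30.3% higher against 16.8% and 15.2% lower against 24.3%. The count called lower depended on the rule: it was 9 with library totals (30.3% of all measured genes), 9 without acinar and hormone genes (34.3%), 3 at a 3-fold limit (17.2%) and 2 on estimated molecules (6.44%). The 10 called higher were all lipogenic enzymes, and the 12 measured sterol enzymes gave 0 higher and 3 lower. Dgat2 had 134 CPM in the RIP and 3.11 in control islets, a ratio of 52.4 (41.7 to 66.6), and Scd1 2870.3 and 112 CPM, a ratio of 31.2 (30.0 to 32.5). Fasn had 1626 CPM in the RIP and 141 in control islets (ratio 14.0), Acaca 207 and 20.8 CPM (ratio 12.1) and Agpat2 128 and 17.1 CPM (ratio 9.07). Lpin1, Me1, Elovl6, Acacb and Acss2 had ratios of 6.93, 6.86, 6.47, 4.98 and 2.57. Acly, Scd2, Elovl5, Fads2 and Dgat1 were not called, at 1.38, 0.954, 0.855, 0.920 and 1.51. Fads1, with 13.4 CPM in the RIP and 62.6 in control islets, was called lower, and Gpam stood at 11 counts (1.83 CPM) in the RIP, against 19.4 CPM in control islets. Sqle (33.7 CPM in the RIP, 86.3 in control islets), Lss (7.63 and 28.7 CPM) and Sc5d (8.13 and 20.5 CPM) were also called lower. Pmvk, Dhcr7, Fdps and Fdft1 had ratios from 1.01 to 1.52, and Hmgcs1, Nsdhl, Cyp51, Mvk and Mvd from 0.590 to 0.872. Srebf2 and Srebf1 had ratios of 0.509 and 0.578, Scap 1.05 and Insig1 1.98, none of them called under TMM. With DESeq2 size factors Insig1 passed the 2-fold limit and was called higher. Idi1 had 0 counts in the RIP and was below the limit of measurement. With 3 counts standing for 0, its level was at least 2.64-fold lower than in control islets. That bound did not hold on estimated molecules, where the interval of the ratio ran from 0 to 8.77.

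The lipogenic values of the RIP were set beside those of adipocyte markers. The CPM in the RIP as a share of the CPM in the IgG library was 8.40% for Scd1, 10.98% for Fasn, 9.55% for Dgat2 and 5.43% for Acacb. Over the 14 adipocyte markers the share had a median of 6.47%, from 2.71% to 16.5%. These 4 lipogenic genes lay in that range, as did Elovl6, Me1, Dgat1, Agpat2 and Gpam. Acaca (22.5%), Acss2 (49.8%), Acly (55.5%), Lpin1 (60.8%), Elovl5 (86.6%), Scd2 (87.6%) and Fads1 (253%) lay above it. Over the 16 lipogenic enzymes above 1 CPM in the IgG library the median was 16.1%, from 5.43% to 253%. Over the 18 members called higher in the IgG library than in control islets the share had a median of 17.7%, from 5.43% to 76.5%. Over the 12 sterol enzymes above 1 CPM in the IgG library the median was 71.9%, from 10.4% to 1584%. The lowest of these, Pmvk at 10.4%, lay in the adipocyte marker range, and Fdft1 (19.2%) and Hmgcs1 (22.1%) lay above it. Of the adipocyte markers, 13 of 14 were called higher for the RIP over control islets and 0 lower, and of the 12 beta cell markers 0 were called either way. The part of adipocyte RNA in the RIP values was not tested. The 3 comparisons with control islets share that library, both comparisons of the RIP share the RIP library, and both of IgG share the IgG library.

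**Figure D3:**
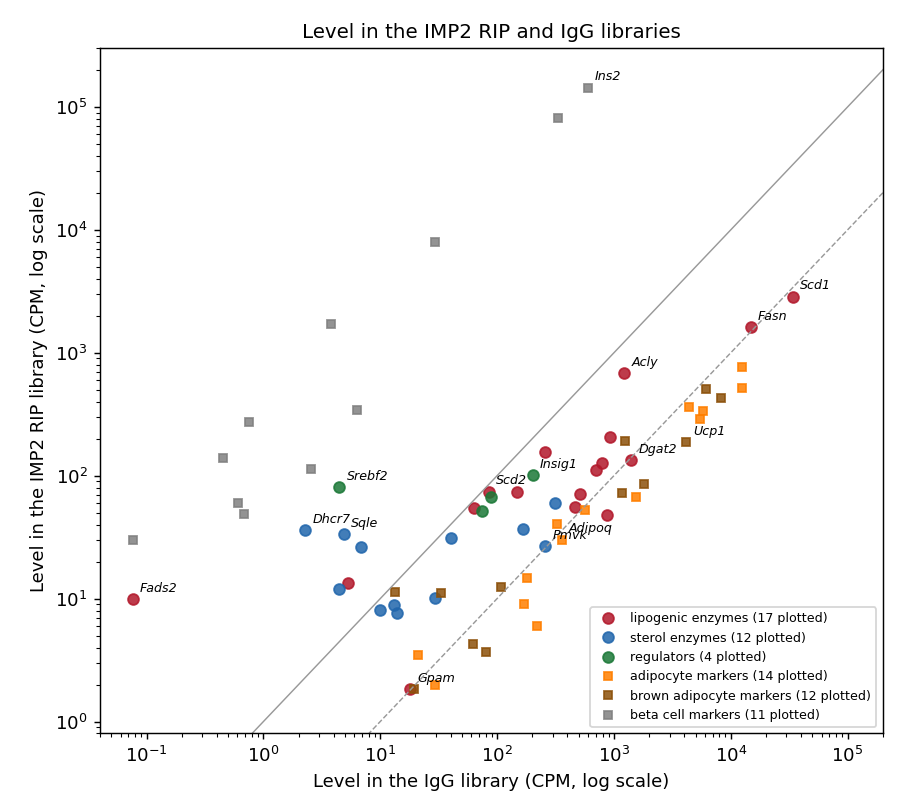
Level in the IMP2 RIP library (y) against the IgG library (x), in CPM on log axes, for the 3 gene groups and for adipocyte, brown adipocyte and beta cell markers. Genes at 0 in either library are not drawn, the solid line marks equal levels and the dashed line a level 10 times lower in the RIP. Scd1, Fasn and Dgat2 lie near the dashed line beside the adipocyte markers, while Srebf2, Dhcr7 and Sqle lie above the solid line.

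Summed over their members, the arms differed in how they moved across the libraries. The lipogenic enzymes summed to 1317 CPM in the labelled knockout, 6317 in the RIP, 56465 in the IgG library and 1313 in control islets, the first and last differing by less than their counting intervals (1302 to 1331 and 1299 to 1327). The sterol enzymes summed to 404 CPM in the labelled knockout, 297 in the RIP, 862 in the IgG library and 434 in control islets. The regulators summed to 345 CPM in the labelled knockout, 302 in the RIP, 369.6 in the IgG library and 442 in control islets. For both, the intervals of the labelled knockout and control islets did not overlap. They were 397 to 413 and 426 to 442 for sterol enzymes, and 338 to 353 and 434 to 450 for regulators. These sums are CPM over gene counts, without the TMM scaling of the ratios. Over gene counts without acinar and hormone genes and Gm42418, the sterol sums were closer, 654 in the labelled knockout and 665 in control islets. Srebf2 alone had 115 CPM of the regulator sum in the labelled knockout and 193 in control islets. The lipogenic sum was 3.26 times the sterol sum in the labelled knockout, 21.3 times in the RIP, 65.5 times in the IgG library and 3.02 times in control islets. Acly made up 54.8% of the lipogenic sum in the labelled knockout and 45.7% in control islets, whereas Scd1 made up 45.4% in the RIP and, in the library labelled IgG, 60.5%. Not every member took part in that spread: across the 4 libraries Scd2 ranged from 74.2 to 94.3 CPM, Scap from 67.7 to 88.5 and Elovl5 from 54.9 to 78.0, while Scd1 ranged from 31.3 to 34177.

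**Figure D4:**
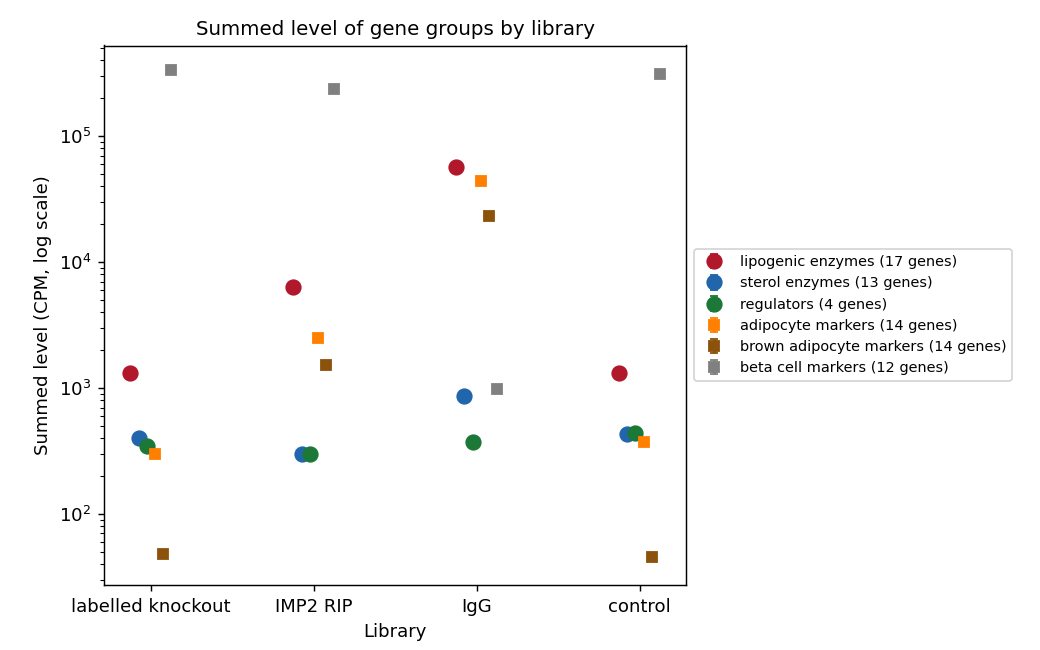
Summed level of the lipogenic enzymes, sterol enzymes and regulators, and of adipocyte, brown adipocyte and beta cell markers, in each library (1 each), in CPM on a log axis, with exact 95% Poisson intervals that are smaller than the symbols. The lipogenic sum is at 56465 CPM in the IgG library, beside the adipocyte marker sum of 43926, and at 1313 CPM in control islets.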

How the data were processed

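Per the labels' protocols, Trizol was used to extract RNA from frozen islets for Illumina sequencing. The authors deposited unnormalized gene counts, and the submitters' processing notes name STAR, HTSeq and mm10. For versions, annotation and strand option nothing is given in the sources used here. Entries that name no gene, the 5 last of each file, held 50.3% of the total in the labelled knockout, 72.4% in the RIP, 70.5% in the library labelled IgG and 50.8% in control islets and stayed out of library sizes.

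Symbols, coordinates and exon lengths came from GENCODE M21 (GRCm38, the assembly of mm10), which matched 42548 of 43629 identifiers. CPM was computed over gene counts. Scaling factors for each pair were trimmed means of M values (TMM) from edgeR 4.0.16 (R 4.3.3). Ratios have exact 95% Clopper-Pearson intervals, sums exact Poisson intervals, and 0.5 counts were added before the log2. All intervals cover counting error only, since PCR copies were not marked by molecular identifiers and reads are then not independent. Reads per molecule were estimated from genes absent from both islet libraries, as the median of their counts above 5, at 18 for the RIP and 21 for IgG. The estimate takes each such gene as 1 molecule, which was not tested. Expressed genes of another tissue among them would make it too high. Size factors came from DESeq2 1.42.0 as an alternative, copies were searched with BLAST 2.17.0, and figures were drawn with Matplotlib 3.10.9. Intervals came from SciPy 1.17.1, and tables were handled in pandas 2.3.3 and NumPy 2.4.6 (Python 3.11.15). The code of the ratio procedure was run on simulated Poisson counts drawn from the mean profile of the labelled knockout and control libraries. The intervals assume such counts, so the run could not test that assumption. That simulation held no PCR copies and did not cover the comparisons with the RIP and IgG libraries. Alternatives were other scalings, minimum levels, fold limits, added counts and memberships of the arms.

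The members, marker lists and further pathway lists were chosen with earlier results of these data known. All members are named, and of the further pathway genes Thrsp, Mlxipl and those with the highest or lowest ratio of their list; some further sterol genes are not reported here. Of the marker lists not given above, acinar markers (12 genes) had 2 called higher and 0 lower in the labelled knockout. Ductal markers (8) had 1 and 0, and endothelial and mesenchymal markers (8) 0 and 1.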

Additional observations from a re-analysis of the deposited data

How the results depend on the processing

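In the labelled knockout against control islets, 0 members were called higher under every alternative run and 3 or 4 lower. The main rule called 6.13% of all measured genes higher and 15.3% lower, and the shares under these alternatives are not reported here. Srebf2 lost its call at a 2-fold limit, and Idi1 was not measured at a minimum mean of 5 CPM. The other comparisons depended on the scaling. With library totals, 15 of 33 measured members were called lower for the RIP over IgG, against 22.9% of all measured genes. For the RIP over control islets it was 9, against 30.3%. With totals that leave out acinar and hormone genes these counts were 14, against 18.9%, and 9, against 34.3%. For IgG over control islets 11 were then called lower, against 67.9%. A 3-fold limit left 3 called lower for the RIP over control islets, against 17.2%. Counts divided by estimated reads per molecule left 2 there, against 6.44%, and 3 called higher for the RIP over IgG, against 16.2%.

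Medians of log2 ratios for the RIP over the IgG library were, with library totals, -2.63 (lipogenic enzymes), -0.47 (sterol enzymes) and -0.46 (regulators), and without acinar and hormone genes -2.20, -0.048 and -0.032. For the RIP over control islets, library totals gave 2.04 (lipogenic enzymes) and -0.64 (regulators), and totals without acinar and hormone genes gave 1.88, -0.74 (sterol enzymes) and -0.79 (regulators). For the IgG library over control islets, library totals gave 3.39, -0.75 and -0.18 (lipogenic, sterol, regulators), totals without acinar and hormone genes 2.81, -1.33 and -0.76, and DESeq2 size factors 4.47 for lipogenic enzymes and 0.91 for regulators. With the regulators placed in the arms, the lipogenic medians were -3.08 for the RIP over the IgG library and 1.84 for the RIP over control islets, and the sterol median was 0.44 for the IgG library over control islets. Scaling shifts all log2 ratios of a comparison by 1 value.

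Genes called under at least 1 of TMM and totals without acinar and hormone genes, and turned in direction between them, were Cyp51 and Scap in the RIP over the IgG library (0.037 and 0.040) and Mvk (-0.061), Mvd (-1.05), Srebf1 (-1.12) and Scap (-0.40) in the IgG library over control islets. Genes called under neither turned too: Scd2, Elovl5 and Sc5d in the RIP over the IgG library, Pmvk, Fdps, Dhcr7 and Scap in the RIP over control islets, Scd2, Elovl5, Gpam and Cyp51 in the IgG library over control islets, and Agpat2, close to 1, in the labelled knockout over control islets. Acly lost its call in the IgG library over control islets with totals that leave out acinar and hormone genes. DESeq2 size factors added Insig1 to those called higher in the RIP over control islets.

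In CPM over gene counts without acinar and hormone genes and Gm42418, the lipogenic enzymes summed to 2129 in the labelled knockout, 11121 in the RIP, 58618 in the IgG library and 2009 in control islets. The sterol enzymes summed to 654, 523, 895 and 665 and the regulators to 559, 531, 384 and 676 in the same libraries. Without Scd1 and Scd2 the lipogenic sums were 1196, 3373, 22203 and 1107 CPM.

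No paired analysis was possible because each group has 1 library and the labels give no replicate numbers. Leaving out a library was not possible for the same reason. In the RIP, 3 counts equal 0.498 CPM, and in the IgG library 0.227, which limits what can be said of Idi1 and Fads2.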

Other observations

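Pairs of related enzymes changed places between the libraries when their levels were compared per kilobase of merged exons. Scd1 over Scd2 was 0.392 in the labelled knockout, 43.2 in the RIP, 451 in the IgG library and 1.32 in control islets, so the desaturase genes stood in opposite order in the islet libraries. Dgat2 over Dgat1, the acyltransferase genes of the last triglyceride step, was 0.0959 in the labelled knockout, 2.40 in the RIP, 2.99 in the IgG library and 0.0694 in control islets. Elovl6 over Elovl5 was 0.164, 1.12, 6.05 and 0.148 in the same libraries. Acacb over Acaca was 0.765, 0.408, 1.69 and 0.993, where 64.3% of the longest Acaca transcript has a near-identical copy. Srebf1 over Srebf2 was 1.11 in the labelled knockout, 0.814 in the RIP, 21.4 in the IgG library and 0.717 in control islets. These are values of single libraries with no test.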
